A study of Mus musculus with 8 samples.

Results

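Syndecans and glypicans are the cell-surface families of heparan sulfate proteoglycans, and all 10 mouse genes of these families (Sdc1 to Sdc4 and Gpc1 to Gpc6) were read from RNA-sequencing of ID8 IP2 ovarian cell lines. The 10 genes were chosen by symbol among the 23284 gene symbols counted, and 7 of them were among the 12430 genes with enough counts to be tested. ID8 IP2 is a mouse ovarian surface epithelial line derived from ID8 cells by passage through C57BL/6 mice, and every line sequenced also carried a lentiviral luciferase-mCherry reporter. The 4 Notch3IC lines were infected with a pCCL lentivirus that expresses an HA-tagged Notch3 intracellular domain followed by an IRES-GFP, so that Notch3 signals without ligand. The 4 Control lines received the pCCL vector without an insert and hence without the IRES-GFP, so effects of the insert and of GFP cannot be told apart. Each of Sets 1 to 4 holds a Control line and the Notch3IC line matched to it, made by separate lentiviral infections of the same parent line. The lines were cultured cells and not tumors, and by the methods of the study later testing gave evidence of mycoplasma in all ID8 IP2 lines, in both groups alike. Control libraries held 24910528, 19013578, 23601232 and 28208072 counts in Sets 1 to 4, and Notch3IC libraries held 22980440, 15524262, 25344051 and 27107061.

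Syndecans span the membrane and end in a short cytoplasmic tail, whereas glypicans are held at the surface by a lipid (GPI) anchor and have no tail. Both carry heparan sulfate chains that bind growth factors, Wnt and hedgehog ligands, and matrix proteins such as fibronectin, and in carcinoma cells they are known as co-receptors in adhesion and growth factor signaling. The chains are built on serines of the core protein by Golgi enzymes, trimmed of sulfate outside the cell, and released together with the core when proteases or lipases cut it.

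The promoters of Sdc3 and Gpc3 are shown because they belong to the members at both ends of the measurements, Sdc3 with the highest fold change of the tested members when all libraries are used and Gpc3 with almost no counts. Both sequences are from RefSeq on GRCm38.p6, 300 bases around the start of the gene, Sdc3 on the plus strand and Gpc3 on the minus strand, written 5′ to 3′ with CpG dinucleotides in capitals.
Sdc3 promoter, chr4:130792287-130792586: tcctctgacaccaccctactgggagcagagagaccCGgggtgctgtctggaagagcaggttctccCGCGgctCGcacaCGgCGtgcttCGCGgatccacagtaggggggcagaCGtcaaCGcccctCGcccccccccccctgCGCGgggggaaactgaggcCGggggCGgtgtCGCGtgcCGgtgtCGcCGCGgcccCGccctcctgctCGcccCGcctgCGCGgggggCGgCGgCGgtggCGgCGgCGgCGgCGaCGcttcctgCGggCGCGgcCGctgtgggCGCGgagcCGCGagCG
Gpc3 promoter, chrX:52613925-52614224: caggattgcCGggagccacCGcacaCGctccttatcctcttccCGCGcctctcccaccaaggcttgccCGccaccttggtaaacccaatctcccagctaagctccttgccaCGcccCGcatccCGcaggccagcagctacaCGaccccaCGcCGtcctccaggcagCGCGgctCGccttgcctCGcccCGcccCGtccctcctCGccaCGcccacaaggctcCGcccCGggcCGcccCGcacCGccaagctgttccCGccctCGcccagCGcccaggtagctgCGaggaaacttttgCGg
The Sdc3 promoter held 44 CpG dinucleotides and 77.7% G and C, and the Gpc3 promoter held 30 and 70.7%. Over all 32851 mouse promoters of this length the medians were 7 CpG dinucleotides and 52.7% G and C, so both windows were rich in CpG, that of the almost unread Gpc3 included. Of the 10 genes, 7 matched this table (Sdc1, Sdc3, Sdc4, Gpc2, Gpc3, Gpc4 and Gpc5). The Rbpj core TGGGAA, read on both strands, was in 25.6% of all promoters, and the E box CACGTG, which is its own reverse complement, was in 7.15%. Neither letter string occurred in the 7 promoters, which describes these windows only.

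Notch3 expression was compared first as a check of the labels. Notch3 normalized counts were 38.7, 40.6, 70.8 and 42.0 in Control (Sets 1 to 4 in order) and 4322, 467, 9220 and 5842 in Notch3IC. The log2 fold change was 6.69 (SE, standard error, 0.88, adjusted p = 0.0169, edgeR quasi-likelihood test with Benjamini-Hochberg adjustment, which gives all adjusted p-values below unless another tool is named). Heyl, a direct Notch target, had 2, 0, 2 and 0 counts in Control and 1927, 147, 7460 and 4628 in Notch3IC. Hey1, another direct target, rose from 35.2 ± 15.3 to 5793 ± 4474 normalized counts (SD, n = 4 libraries each), a log2 fold change of 7.35 (SE 0.99, adjusted p = 0.0169). Notch3, Heyl and Hey1 were higher in every Notch3IC line than in any Control line, and Set 2 had the lowest level of each among the Notch3IC lines. Hes1, another Notch target, was not called (log2 fold change 0.58, SE 0.32, adjusted p = 0.388), and its groups overlapped although it was higher in the Notch3IC line of each set. Normalized counts are counts scaled by TMM-adjusted library size to the mean library, and they compare libraries within a gene.

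The labelled cell type, ovarian surface epithelium, was checked against its markers, whose summed level was lower in the Notch3IC line of each set. All 8 markers of ovarian surface epithelium and mesothelium had counts, with the most counts on Upk3b. Their summed normalized counts were 21960, 41301, 66193 and 63791 in Control Sets 1 to 4 against 7028, 26347, 24471 and 18831 in Notch3IC Sets 1 to 4. Of the 7 tested, 1 was called lower (Msln, log2 fold change -2.60, adjusted p = 0.0625), and 4 with the set as a block. Krt7 had 5, 2, 46 and 7 counts in Control against 1, 1, 2 and 2 in Notch3IC, too few for the edgeR test, and DESeq2 called it lower (log2 fold change -3.23, adjusted p = 0.0463). Of 2 smooth muscle and pericyte markers tested, 1 was called higher (Cspg4, log2 fold change 4.20, adjusted p = 0.0169). With the block both were called higher, and with condition alone Acta2 was not (log2 fold change 1.24, adjusted p = 0.462). Rgs5, a pericyte marker with 1 to 4 counts in Control against 18, 3, 68 and 60 in Notch3IC, was also too low for the edgeR test and was called higher by DESeq2 (log2 fold change 3.85, adjusted p = 0.00037). Myh11 and Des were too low for the edgeR test as well, and DESeq2 called neither (log2 fold change 0.76 and 0.99, adjusted p = 0.880 and 0.520). The summed normalized counts of the smooth muscle and pericyte list were almost all from Acta2. They were 33506, 11091, 7005 and 2873 in Control against 74459.6, 17296, 23059 and 15249.9 in Notch3IC. Set 1 thus had the lowest summed level of the epithelial and mesothelial list and the most Acta2 counts in both groups. Krt19, Msln, Upk3b, Lrrn4 and Wt1 were each lowest in Set 1 of both groups. Krt7, Krt8 and Krt18 were instead lowest in Set 2 among the Control lines, as was Krt18 among the Notch3IC lines. Of 6 leukocyte markers, Cd3e and Emr1 had no counts and Ptprc and Itgam at most 2.24 normalized counts in a library, and Cd68 had the most, up to 119. Cdh5 and Tek of 4 endothelial markers, Rbfox3 and Sox10 of 6 neural and glial markers and Adipoq and Plin1 of 3 adipocyte markers were at or near 0, and edgeR called no gene of these 4 lists. Fabp4, the third adipocyte marker, had 2, 2, 2 and 2 counts in Control against 2, 8, 9 and 18 in Notch3IC, too few for the edgeR test, and DESeq2 called it higher (log2 fold change 2.26, adjusted p = 0.0732). The part of these markers in the differences of syndecan and glypican genes was not tested.

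Sdc2, Gpc4 and Gpc6 rose in the Notch3IC lines, by 2.06-fold, 3.33-fold and 3.70-fold. Calls required an adjusted p below 0.1 together with a log2 fold change of 1 or more in either direction. Under this rule 3 of the 7 tested members were called higher, beside 3.4% of all genes tested (423 of 12430), and 0 were called lower, beside 0.74% (92 of 12430). The median log2 fold change was 1.04 over the 7 members and -0.01 over all genes tested. No member was lower at an unadjusted p under 0.05 or by DESeq2, beside 6.65% and 1.38% of all genes. At that unadjusted p 11.8% of all genes were higher and 18.4% passed in either direction (2289 of 12430), and DESeq2 called 5.07% higher (707 of 13958). The count of 3 became 5 without the Control line of Set 1, beside 3.81% of all genes. It was 1 without the Control line of Set 3 or 4 or the Notch3IC line of Set 4, beside 0.596%, 0.789% and 1.24%, and 0 without Set 3 or Set 4, beside 0.00805% (1 gene) and 0%. With the set added to the fit as a block, which compares each Notch3IC line with its own Control line, Sdc3 and Gpc1 were also called. The members called higher were then 5 of 7, beside 5.19% of all genes tested, and 0 were lower, beside 2.53%. Leaving a set out of the blocked fit gave 1 (Sdc3) without Set 1, 3 (Sdc3, Gpc4 and Gpc6) without Set 3 or Set 4 and 5 without Set 2. The genes called higher in the whole table fell with them, to 0.368% without Set 1, 0.475% without Set 3 and 1.04% without Set 4, and were 7.24% without Set 2. Sdc4 was the member with a negative fold change, and its size was below the limit in both fits. With bulk RNA, a difference in the number of cells that express a gene and in the RNA per cell cannot be told apart, and the 4 lines of a group are separate infections of 1 parent line, so p-values measure the spread between these lines.

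**Figure D1:**
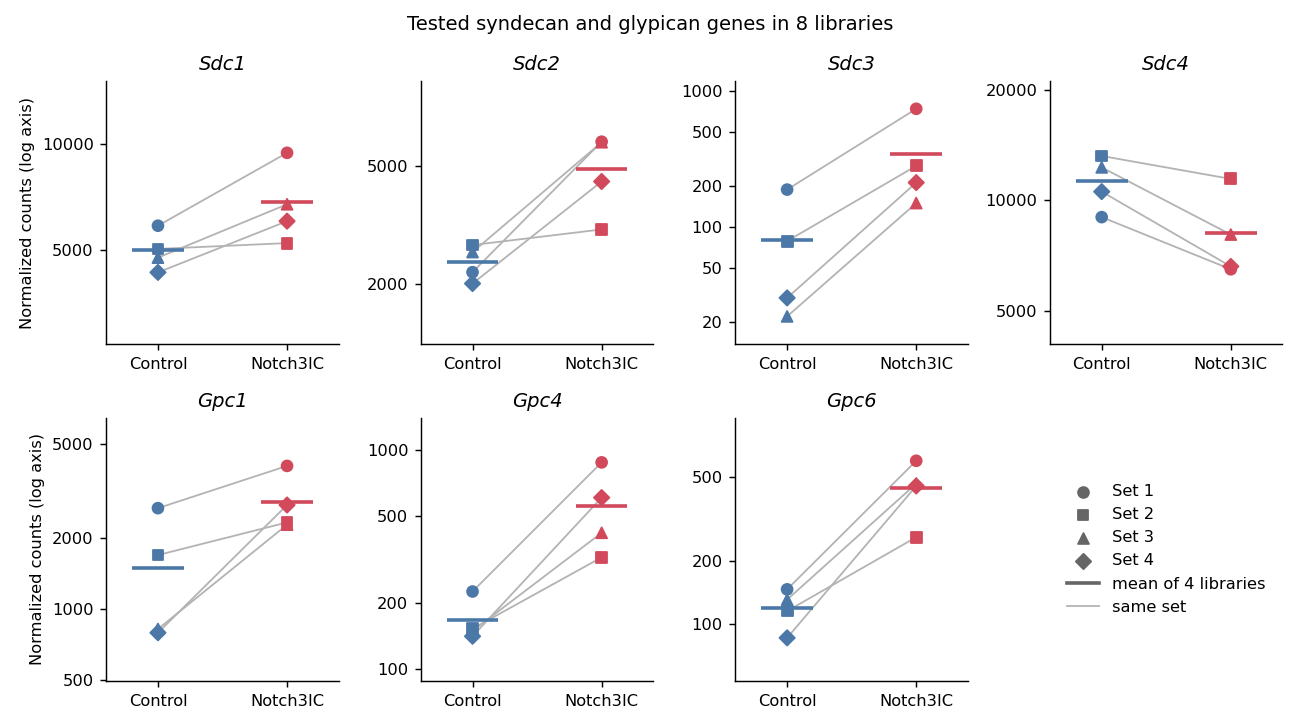
Normalized counts (log axis) of the 7 tested syndecan and glypican genes in the Control and Notch3IC libraries, with 1 symbol per set, a thin line joining the libraries of a set and a bar at the mean of 4 libraries. Every Notch3IC library lies above every Control library for Sdc2, Gpc4 and Gpc6, and the lines slope up for 6 genes and down for Sdc4, whose mean is 11264 in Control and 8149 in Notch3IC.

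Among the syndecans, Sdc2, known for its part in cell spreading and fibronectin matrix assembly, was called. Its normalized counts were 2191, 2705, 2560.4 and 2007 in Control Sets 1 to 4 against 6024, 3052, 5997 and 4425 in Notch3IC Sets 1 to 4. The Notch3IC line of Set 2 was the lowest of its group and stood just above the Control line of Set 2, the highest Control, so the groups did not overlap. The mean rose from 2366 ± 323 to 4874 ± 1426 (SD, n = 4), a log2 fold change of 1.04 (SE 0.22, adjusted p = 0.0442). This fold change lies close to the limit of 1, and it was 0.996 when counts were scaled by library totals alone, which ended the call. Leaving out 1 library gave log2 fold changes from 0.93 to 1.21 and adjusted p-values from 0.00376 to 0.146, and the call was lost without the Control line of Set 3 or 4 or the Notch3IC line of Set 1, 3 or 4, and without Set 1, 3 or 4 as a whole.

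Sdc3, the syndecan best known from neurons and muscle progenitors, was the syndecan with the widest spread. Normalized counts were 188, 78.8, 22.0 and 30.1 in Control against 739, 281, 149.9 and 212 in Notch3IC. The Notch3IC line was the higher one in each set, but the Control line of Set 1 exceeded the Notch3IC line of Set 3, so the groups overlapped. The log2 fold change was 2.12 (SE 0.76, adjusted p = 0.179), and with the set as a block it was 2.29 (SE 0.21, adjusted p = 0.00881). The spread of Sdc3 lay mostly between sets: the highest Control library was 8.56 times the lowest, whereas Sets 1 to 4 gave log2 ratios of 1.97, 1.83, 2.74 and 2.79. DESeq2 also called Sdc3 (adjusted p = 0.0271), and edgeR called it without the Control line of Set 1 or without Set 1. The size of the fold change depended on Set 1, with a log2 fold change of 3.003 without its Control line and 1.44 (adjusted p = 0.295) without its Notch3IC line, where it lay below the 1.72 of Gpc6.

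Sdc1 and Sdc4, the syndecans typical of epithelia and of focal adhesions, were not called. Sdc1 normalized counts were 5851, 5027, 4747 and 4311 in Control against 9428, 5222, 6732 and 6029 in Notch3IC. Set 2 showed almost no difference, and its Notch3IC line lay below the Control line of Set 1. The log2 fold change of Sdc1 was 0.46 (SE 0.19, adjusted p = 0.238), and with the block it was 0.43 (adjusted p = 0.0502), below the fold limit. Sdc4 normalized counts were 8999, 13207, 12292 and 10559.5 in Control against 6489, 11437, 8066 and 6606 in Notch3IC. The Notch3IC line was the lower one in each of the 4 sets, and the Notch3IC line of Set 2 exceeded the Control lines of Sets 1 and 4. The log2 fold change of Sdc4 was -0.47 (SE 0.21, adjusted p = 0.278, unadjusted p = 0.0524), and with the block it was -0.49 (SE 0.09, adjusted p = 0.0306), which passed the p threshold and not the fold limit.

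Gpc6 and Gpc4, glypicans with known roles in skeletal growth and in Wnt and FGF signaling, rose most among the called members. Gpc6 normalized counts were 147, 116, 131 and 86.4 in Control Sets 1 to 4 against 597, 259, 465 and 454 in Notch3IC Sets 1 to 4. The lowest Notch3IC line, Set 2, stood clear of the highest Control line, Set 1. The log2 fold change was 1.89 (SE 0.27, adjusted p = 0.0182), and Gpc6 kept its call when any 1 library was left out, with log2 fold changes from 1.72 to 2.07 and adjusted p-values from 0.00151 to 0.0854. Without Set 3 or Set 4 as a whole the call was lost, at log2 fold changes of 1.91 and 1.75 (adjusted p = 0.235 and 0.229). Under either omission at most 1 gene of the whole table was called higher.

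Gpc4 normalized counts were 226, 153, 149 and 141 in Control against 880.2, 324, 419 and 607 in Notch3IC. Set 1 held the highest library of both groups, and the groups did not overlap. The mean rose from 167 ± 39.5 to 558 ± 245 (SD, n = 4), a log2 fold change of 1.74 (SE 0.32, adjusted p = 0.0311). Leaving out 1 library gave adjusted p-values from 0.00577 to 0.122, and the call was lost without the Control line of Set 3 or 4, the Notch3IC line of Set 4, or Set 3 or 4 as a whole. Its log2 fold change stayed at 1.66 to 1.69 without any 1 of these 3 libraries, and 1.80 and 1.62 without Set 3 and Set 4. Every Notch3IC library was above every Control library for Sdc2, Gpc4 and Gpc6, 3 of 7 members, beside 7.08% of all genes tested. No member had all Notch3IC libraries below all Control libraries, beside 3.75%.

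Gpc1, a glypican that many carcinomas express and that binds FGFs, was the glypican with the highest level per kilobase. Its normalized counts were 2671, 1690.4, 821 and 792 in Control against 4034, 2324, 2273 and 2755 in Notch3IC. The Control line of Set 1 exceeded the Notch3IC lines of Sets 2 and 3. The log2 fold change was 0.93 (SE 0.40, adjusted p = 0.265) with condition alone and 1.08 (SE 0.25, adjusted p = 0.0482) with the block, where it was called. As for Sdc3, the Control libraries were far apart, the highest 3.37 times the lowest. The fit with condition alone called Gpc1 without the Control line of Set 1 (adjusted p = 0.0725) or without Set 1 (adjusted p = 0.0998). The call with the block was lost without Set 1, 3 or 4 (adjusted p = 0.131, 0.211 and 0.172). The blocked log2 fold change was then 1.24, 0.94 and 0.84, below the fold limit without Set 3 or 4. On GRCm38, 18.9% of the exon bases of Gpc1 overlap Ankmy1 on the opposite strand. Ankmy1 averaged 1 count in Control and 1.75 in Notch3IC, and whether reads of the shared bases were counted for Gpc1 was not tested.

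**Figure D2:**
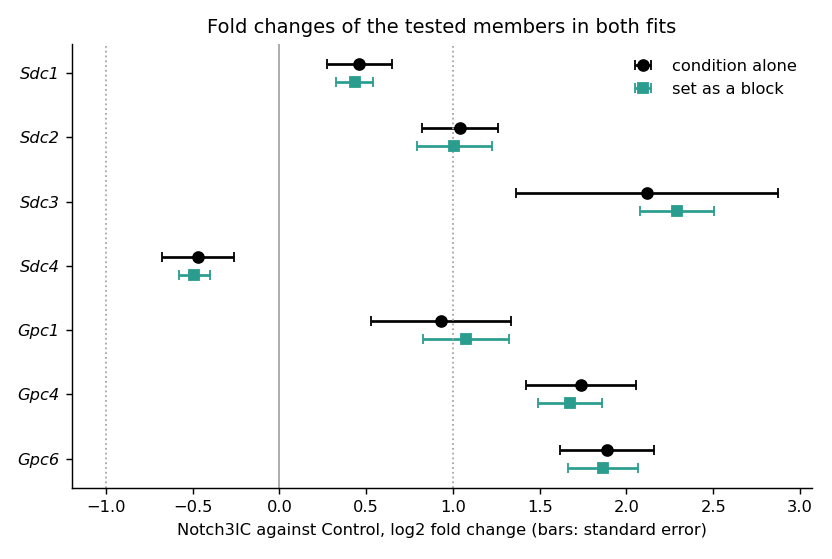
Log2 fold changes of Notch3IC against Control for the 7 tested members (bars, standard error), from the fit with condition alone (circles) and with the set as a block (squares), with dotted lines at a log2 fold change of 1 in either direction. The error of Sdc3 falls from 0.76 to 0.21 with the block, and that of Sdc2 is 0.22 in both fits.

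Gpc2, Gpc3 and Gpc5 were close to absent and had too few counts to be tested in the main fit. Gpc3, the oncofetal glypican of liver tumors, had 1 count in the Control line of Set 4, 1 in the Notch3IC line of Set 4 and 0 in the other 6 libraries. Gpc5, known from kidney and brain, had 1 count in each of the Notch3IC lines of Sets 1 and 3 and 0 elsewhere. Gpc2, a glypican of developing neurons, had 0, 1, 2 and 3 counts in Control and 0, 0, 2 and 6 in Notch3IC. A count of 0 allows up to 3 counts in a library, and no difference was detectable at this depth. On GRCm38, 55.6% of the exon bases of Gpc2 overlap Gm43720 on the same strand, so its few counts are uncertain.

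Both called glypicans lie in the genome beside a glypican that was not tested. On GRCm38 Gpc4 (chrX:52053021-52165252) and Gpc3 (chrX:52272426-52613950) lie on the minus strand of chromosome X, 107 kb apart, and Gpc5 (chr14:115092215-116525179) and Gpc6 (chr14:116925315-117976544) on the plus strand of chromosome 14, 400.1 kb apart. On the far side of Gpc4, 1700080O16Rik had no count in any library, and beyond Gpc3, Ccdc160 averaged 17.2 counts in Control lines and 10.2 in the Notch3IC lines, with a log2 fold change of -0.67 (adjusted p = 0.585). Dct, next to Gpc6, had no count in any library. Sdc2 (chr15:32920723-33034935) lies on chromosome 15 after Sema5a, whose log2 fold change was -0.46 (adjusted p = 0.447). The deposited counts were made on another mouse build (mm9, per the labels), so these positions serve only to place the genes.

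Ratios within sets were similar in direction and differed in size. Normalized counts were higher in Notch3IC in all 4 sets for 6 of the 7 members, beside 21% of all genes tested, and lower in all 4 sets for Sdc4, beside 19.4%. For each of the 7 members, Set 2 had the smallest ratio in size. The log2 ratio of Sdc2 was 1.46, 0.17, 1.23 and 1.14 in Sets 1 to 4. That of Gpc4 was 1.96, 1.08, 1.49 and 2.10, and that of Gpc6 was 2.02, 1.16, 1.82 and 2.39. The log2 ratio of Notch3 was also smallest in Set 2, at 3.51 against 6.79, 7.01 and 7.10, and the Notch3IC library of Set 2 had the fewest counts of the 8. With 1 library per arm in a set there is no test within a set, and whether the size of a member's ratio follows Notch3 was not tested.

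**Figure D3:**
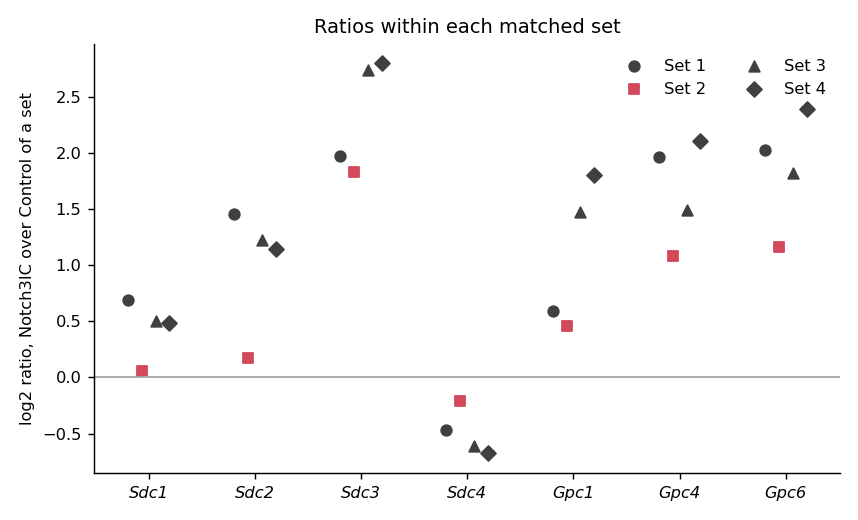
Log2 ratio of normalized counts, Notch3IC over Control of the same set, for each tested member, with 1 symbol per set and Set 2 in red. Set 2 lies nearest to 0 for each gene, at 0.17 for Sdc2, 1.08 for Gpc4 and 1.16 for Gpc6.

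Across the 8 libraries, 6 of the tested members varied together and Sdc4 varied in the opposite direction. Pearson's r of log2 TMM-scaled counts was 0.97 between Sdc3 and Gpc1, 0.97 between Gpc4 and Gpc6 and 0.95 between Sdc2 and Gpc6. Sdc4 correlated negatively with each other member, from -0.68 with Sdc3 to -0.88 with Gpc4. These values describe 8 libraries in 2 groups and carry the group difference. The tested genes most alike in pattern to Sdc2 were Adamts2, Entpd4 and Fam81a (r = 0.99 each). Those most like Gpc4 were Srrm4, Pkp1 and Fgfr1 (r = 0.99, 0.99 and 0.98), and those most like Gpc6 were Mdga1, Smoc1 and Postn (r = 0.99 each), of which Postn encodes the matrix protein periostin.

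Scaled to length, syndecan transcripts far outnumbered glypican transcripts in both groups. Levels here are normalized counts per kilobase of the merged exons of a gene on GRCm38. In Control the level was 4423 ± 733 for Sdc4, 1308 ± 170.4 for Sdc1, 671 ± 91.5 for Sdc2, 289.5 ± 172 for Gpc1, 63.1 ± 14.9 for Gpc4, 18.7 ± 4.00 for Gpc6 and 13.3 ± 12.8 for Sdc3 (SD, n = 4). Gpc6 and Sdc3 overlapped in range, and every other pair of neighbours in this order did not overlap. In Notch3IC the level was 3200 ± 905 for Sdc4, 1799 ± 479 for Sdc1, 1382 ± 404 for Sdc2, 552 ± 159 for Gpc1, 210.4 ± 92.5 for Gpc4, 69.1 ± 21.7 for Gpc6 and 57.7 ± 44.7 for Sdc3. The order was the same, but the ranges of Sdc1 and Sdc2 now overlapped, as did those of Gpc6 and Sdc3, and the other neighbours did not overlap. These separations depend on the length used. Per kilobase of the longest transcript, the order of the means was unchanged, but Sdc2 and Gpc1 also overlapped in Control, and in Notch3IC Gpc1 and Gpc4 were the only neighbours that did not overlap. The level of Gpc6 on that scale was 28.9 in Control and 107 in Notch3IC.

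The summed level of the syndecans was 6415 ± 754 per kilobase in Control and 6438 ± 653 in Notch3IC, a difference well within the spread between libraries. The summed level of the glypicans was 372 ± 189 in Control and 832 ± 267 in Notch3IC. Its libraries ran 626, 404, 236 and 221 in Control against 1207, 613, 672 and 835 in Notch3IC, and it was higher in Notch3IC in each set although the groups overlapped at the Control line of Set 1. As a share of the summed level of all members, Sdc4 made up 55.7%, 67.4%, 68.6% and 68.3% in Control and 31.6%, 60.8%, 43.2% and 41.2% in Notch3IC. Sdc2 made up 9.86% ± 0.39 in Control and 19.0% ± 5.04 in Notch3IC. The glypicans together made up 9.86%, 5.25%, 3.36% and 3.64% in Control and 15.0%, 8.30%, 9.16% and 13.3% in Notch3IC. The share of Sdc4 was lower and that of Sdc2 higher in the Notch3IC line of each set.

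**Figure D4:**
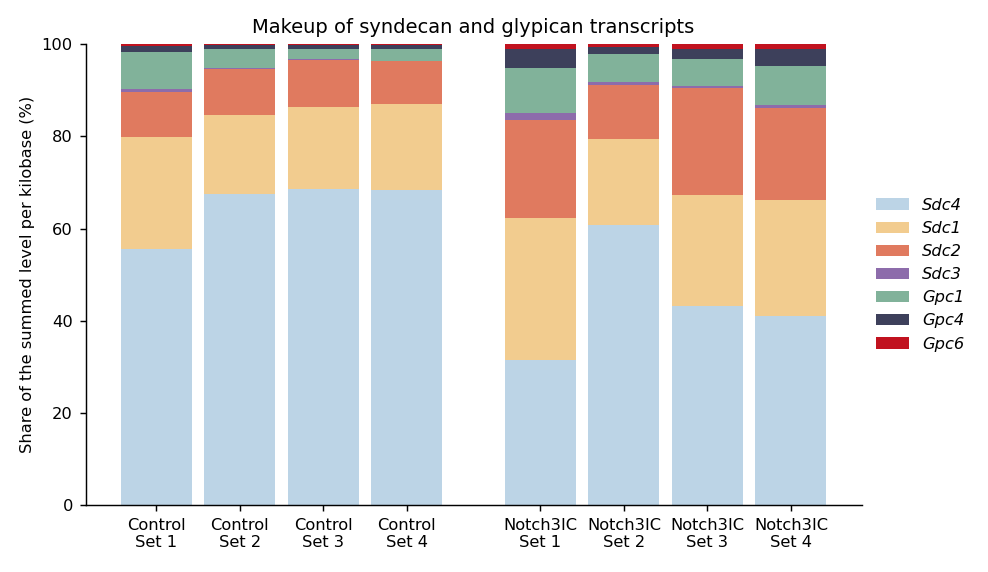
Share of each member (percent, stacked to 100) in the summed level per kilobase of the 10 members in each library, Control on the left and Notch3IC on the right, where Gpc2, Gpc3 and Gpc5 are too low to be seen. Sdc4 is 55.7% in Control and 31.6% in Notch3IC of Set 1, and 67.4% and 60.8% in Set 2.

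The machinery that builds, edits and releases the chains was examined in 9 lists of 68 other genes, of which 54 were tested. Of these, 2 were called higher and 0 lower, beside the 3.4% and 0.74% of all genes tested given above, and their median log2 fold change was 0.06. Without Set 3 or Set 4 neither gene was called. With the block 4 were higher and 1 lower, beside the 5.19% and 2.53% of all genes tested. The glypican list, with 2, was the only list with more than 1 gene called with condition alone.

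Among the 4 other heparan sulfate core proteins, Col18a1 was called. It encodes collagen XVIII, a basement membrane collagen with heparan sulfate chains. Col18a1 normalized counts were 58.5, 94.3, 73.7 and 49.9 in Control against 1551, 245, 2053 and 2387 in Notch3IC. The groups did not overlap, and the log2 fold change was 4.51 (SE 0.65, adjusted p = 0.0182). Set 2 had the smallest log2 ratio, at 1.37, against 4.72, 4.79 and 5.56 in Sets 1, 3 and 4. Hspg2 (perlecan), the gene of this list with the most counts, had a log2 fold change of -0.34 (adjusted p = 0.552).

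Among the 10 genes of core protein shedding and release, of which 8 were tested, Mmp14 was called. Mmp14 encodes the membrane-bound metalloprotease MT1-MMP, which can cut syndecan-1 from the surface. Its normalized counts were 6786, 5956, 5079 and 4517 in Control against 10945, 7004, 19344 and 16552 in Notch3IC. Every Notch3IC line lay above every Control line, and the log2 fold change was 1.27 (SE 0.30, adjusted p = 0.0604). The call was lost without the Control line of Set 2, 3 or 4 or the Notch3IC line of Set 3 or 4, and at an adjusted p under 0.05. Timp3, an inhibitor of such proteases and the gene of the list with the most counts, had a log2 fold change of -0.29 (adjusted p = 0.701).

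The enzymes that start and extend the chains gave 0 calls with condition alone, in 7 linkage genes and 5 chain polymerization genes tested. At an unadjusted p under 0.05 edgeR gave 3 and 2 of them, all higher, beside 11.8% of all genes, and DESeq2 called 1 higher (Xylt1), beside 5.07%. Ext1 and Ext2, which form the heparan sulfate polymerase, had log2 fold changes of 0.60 (SE 0.15, adjusted p = 0.0671) and 0.37 (SE 0.10, adjusted p = 0.0802), past the p threshold and below the fold limit. Ext1 had the most counts of the chain polymerization genes, at 6087, 5653, 5219 and 4292 normalized counts in Control and 9039, 6367, 8612 and 8111 in Notch3IC. The Notch3IC lines of Ext1 all exceeded the Control lines. Of the linkage enzymes Acpl2, whose current symbol is Pxylp1 and which encodes a xylose phosphatase, had a log2 fold change of 0.79 (adjusted p = 0.0848). Xylt1, a xylosyltransferase that starts the chain, was called in edgeR with the block, at a log2 fold change of 1.35 (SE 0.37, adjusted p = 0.0627), and not with condition alone, at 1.36 (adjusted p = 0.146). Fam20b, a xylose kinase and the linkage gene with the most counts, had a log2 fold change of 0.06 (adjusted p = 0.834).

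Of the 16 modification genes 8 were tested and 0 were called with condition alone or by DESeq2, with 1 (Ndst1, higher) at an unadjusted p under 0.05 in edgeR, a share near the background of 11.8%. Hs3st1, the 3-O-sulfotransferase that makes the antithrombin-binding site of heparan sulfate, had the most counts. Its normalized counts were 3879.9, 8565, 6735 and 6904 in Control against 1190.0, 6834, 3005 and 3478 in Notch3IC. It was lower in the Notch3IC line of each set, and Set 2 again differed least. With the block its log2 fold change was -1.04 (SE 0.22, adjusted p = 0.0405) and it was called lower, whereas with condition alone it was -0.85 (SE 0.47, adjusted p = 0.384). The Notch3IC line of Set 2 lay above the Control lines of Sets 1 and 3 and close to that of Set 4.

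The remaining lists gave 0 calls with condition alone in edgeR and 0 with DESeq2, and 1 gene each of lysosomal breakdown, the chondroitin branch and the cytoplasmic partners had an unadjusted p under 0.05 (Gusb and Chsy1 higher, Prkca lower). With 18.4% of all genes at such a p in either direction, 1 gene of a list this short is not a result about the list. Of extracellular editing, 3 of 4 genes were tested. Sulf2, a 6-O-endosulfatase and the gene with the most counts, had a log2 fold change of 0.24 (adjusted p = 0.600). Sulf1 of the same list was lower in the Notch3IC line of each set, at -0.64 (adjusted p = 0.448). With the block Sulf2 was at 0.24 (adjusted p = 0.0463) and Sulf1 at -0.65 (adjusted p = 0.0460), neither past the fold limit. Of lysosomal breakdown, 7 of 8 were tested, with a range of log2 fold changes from -0.23 to 0.32. Of the cytoplasmic partners of syndecans, 7 of 8 were tested, with Actn4 (alpha-actinin-4), which had the most counts, at -0.04 (adjusted p = 0.901). In the chondroitin sulfate branch, which competes for the same linkage, 5 of 6 genes were tested, and Chpf2 had the most counts and a log2 fold change of 0.06 (adjusted p = 0.850). Csgalnact2 of the same list averaged 1338 normalized counts in Control and 1346 in Notch3IC, at a log2 fold change of 0.008 (adjusted p = 0.980). Csgalnact1, an enzyme that starts a chondroitin chain, was called higher with the block at a log2 fold change of 1.53 (SE 0.49, adjusted p = 0.0869). Its normalized counts were 31.7, 13.1, 4.79 and 5.55 in Control against 167, 8.79, 10.1 and 21.1 in Notch3IC. Its log2 ratios in Sets 1 to 4 were 2.37, -0.55, 1.01 and 1.84, so that Set 2 went the other way, and with condition alone the adjusted p was 0.389.

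**Figure D5:**
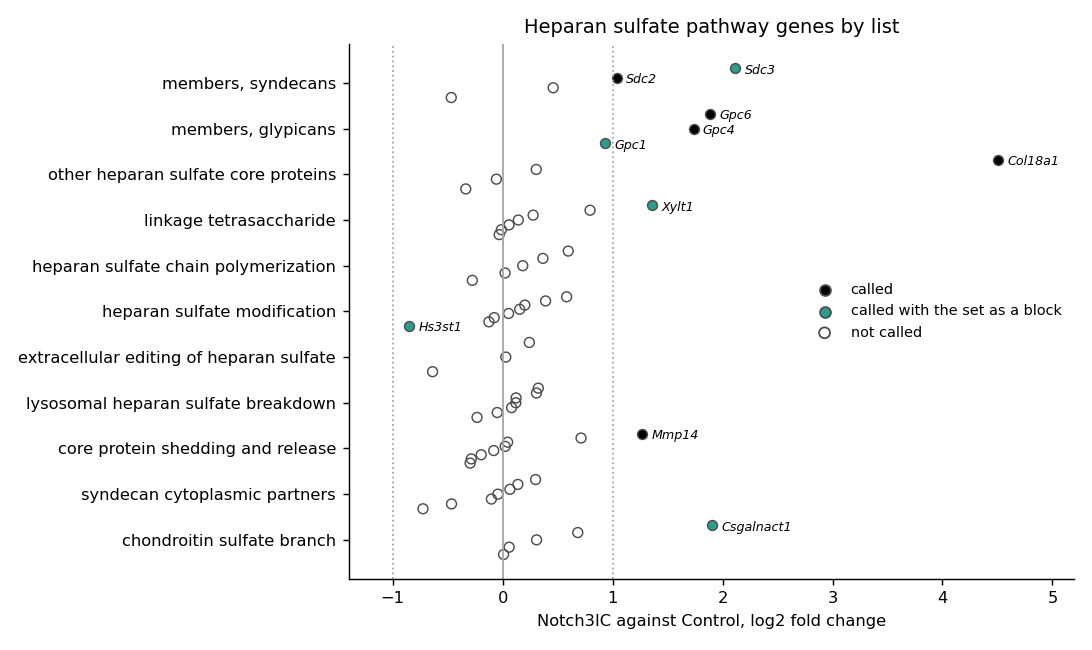
Log2 fold changes of Notch3IC against Control with condition alone for the tested genes of each list. Genes called in that fit are black, also where the fit with the set as a block called them. Genes called only with the set as a block are green, and others are open. The members reach 2.12 (Sdc3), Col18a1 lies at 4.51 and most genes of the other lists lie near 0, with a median of 0.06.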

How the data were processed

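For each of the 8 libraries the authors deposited raw read counts by gene symbol, in whole numbers. Per the labels and the methods of the study, polyadenylated RNA was read single-end, aligned with TopHat (mm9), counted with Cufflinks and compared with DESeq. Versions, annotation and strandedness are not given in the sources used here, so reads of genes that overlap on opposite strands may not be told apart. No symbol was blank.

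Notch3IC was compared with Control in edgeR 4.0.16 under R 4.3.3 (TMM, filterByExpr by group, robust quasi-likelihood fit), with condition as the term, on the whole table of 12430 tested genes. Standard errors are the log2 fold change divided by the square root of F. Ratios within sets use a pseudocount of 0.5, and correlations a prior count of 2. The sets are matched pairs by the methods of the study. Deviations from the group means correlated at 0.80, 0.40, 0.57 and 0.41 within Sets 1 to 4 and at -0.50 to 0.37 across sets, so the block was fitted as an alternative. The biological coefficient of variation was 26.3%, or 14.1% with the block.

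The members and the lists were chosen with earlier results of these data known. Named besides the members are the list genes called in either fit, the tested gene of each list with the most counts, the 3 genes most alike to each called member, neighbours of Gpc3 to Gpc6 and of called members, and Notch3, Hey1 and Heyl. Some genes of the lists are not reported here. Ext2, Acpl2, Ndst1, Sulf1, Gusb, Chsy1, Csgalnact2, Prkca, Hes1 and the marker genes were named after their values were seen. Lengths and positions are from GENCODE on GRCm38, promoters from RefSeq. Acpl2 and Emr1 were matched as older symbols.

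Settings tried as alternatives were DESeq2 1.42.0, edgeR with RLE factors, upper-quartile factors or library totals, no filter, at least 10 counts in every library, the block, adjusted p under 0.05, no fold limit, leaving out each library and set, other lengths, and, chosen after seeing the data, the block with each set left out. The tests were also tried on simulated data, with no outcome reported here. Python 3.11.15 and Matplotlib 3.10.9 were used for reference tables and figures.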

Additional observations from a re-analysis of the deposited data

Results flagged for a closer look

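Gpc4 in the Control line of Set 1 stood apart from the other 3 Control libraries, at 226 normalized counts against 141, 149 and 153, a gap of 0.862 of the range of the group, above Dixon's 95% critical value. It was the 1 such case in 14 groups of 4 libraries (the 7 tested members in each condition), and chance gives about 1 in 20 groups, or 0.7 here. Without that library Gpc4 was called higher as before.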

How the results depend on the processing

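All 7 tested members kept the sign of their fold change under every alternative fitted. Members called higher numbered 3, and were 4 with DESeq2, 2 with library totals, 3 with RLE or upper-quartile factors, with either filter, at an adjusted p under 0.05 and without the fold limit, and 5 with the replicate block. Leaving out libraries or sets gave 0 to 5: 5 without the Control line of Set 1, 1 without the Control line of Set 3 or 4 or the Notch3IC line of Set 4, and 0 without Set 3 or Set 4. All genes called higher fell with them, from 423 to 75 and 99 without the Control line of Set 3 or 4 and to 1 and 0 without Set 3 or Set 4. With the block and each set left out, chosen after seeing the data, members called higher numbered 5 with all sets and 1 to 5 otherwise (1 without Set 1, 3 without Set 3 or Set 4). Members called lower were 0 under every alternative. Sdc1 (0.0382), Sdc3, Gpc1 and the called members had an unadjusted p under 0.05, beside 18.4% of all genes tested, and Sdc4 had 0.0524.

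Genes of the other lists called higher numbered 2, and were 3 with DESeq2 (Xylt1 added), 4 with the replicate block, 1 at an adjusted p under 0.05, 5 without the fold limit and 0 to 3 when libraries or sets were left out. Those called lower numbered 0, were 1 (Hs3st1) with the replicate block, and 0 to 1 when libraries or sets were left out. The block changed the calls of Sdc3, Gpc1, Xylt1, Csgalnact1 and Hs3st1 and of no other member or list gene. It moved all genes called from 423 higher and 92 lower to 645 and 315, and the share of higher among calls from 82.1% to 67.2%, and DESeq2 gave 707 and 192. No scaling moved the median of all genes by over 0.1. Taken by counts without length, the share of Sdc4 was 55.0% in Control and 34.4% in Notch3IC, and by longest transcript it was 62.6% and 42.0%. That of Gpc6 was 0.59% and 1.83% without length, against 0.28% and 0.95%. Shares moved by more than 1 SD for 8 of 14 values without length and for 3 by longest transcript, as did 3 of 14 levels per kilobase. Gpc2, Gpc3 and Gpc5 had too few counts for the main fit, and none of them was called without the expression filter.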
